A study of Mus musculus with 18 samples.

Results

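GABA and glycine signalling genes were followed in the mouse striatum as 27 genes of an expression table of 29942 gene names. The members were the rows carrying a listed gene name, and all 27 were found. They comprised 16 receptor subunits, 5 genes of GABA synthesis, transport and breakdown, and 6 genes of inhibitory scaffolds, adhesion and trafficking. PolyA RNA was sequenced from striatal tissue lying dorsal to the anterior commissure, taken from both hemispheres of 18 mice, siblings of strain 129Sv/Jae S4. Each of 6 groups held 3 animals, given intraperitoneal 0.9% saline or D-amphetamine hemisulfate in 0.9% saline and sampled on day 1, 7 or 21. The amphetamine dose was 7 mg/kg in total per day. Amphetamine is a psychostimulant that releases dopamine, and the title of the series names repetitive behaviours under drugs as its topic. Siblings were matched for age and sex and housed in groups, and neither age nor sex is given here. The labels name no genetic change in any group.

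GABA is the main inhibitory transmitter of the brain, and the projection neurons that make up most of the striatum release it. Glutamate decarboxylases make GABA, a vesicular transporter loads it, GABA-A receptors open chloride channels made of subunits drawn from several families, and GABA-B receptors act through G proteins. Glycine receptors are related chloride channels. Gephyrin and neuroligin hold receptors at the synapse, and astrocytes clear part of the transmitter.

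Levels are given in FPKM, a measure that divides sequenced fragments by transcript length and by the size of the library, so genes can be set side by side per unit of length. Differences were tested by limma on log2(FPKM + 1) over the 13975 genes whose FPKM averaged 1 or more, with Benjamini-Hochberg adjusted p values and a threshold of 0.05. A gene is said to have passed where its adjusted p was below that threshold. Of the 27 members, 24 were tested and 3 fell under the filter. Markers of projection neurons were all 12 detected at a mean FPKM of at least 1 and summed to 3820 to 4660 FPKM per library, against 14.2 to 92.4 for cortical glutamatergic markers. In bulk tissue, fewer cells of a type and less RNA per cell cannot be told apart. The relative depth of a library lay between 0.652 and 1 times that of the deepest and was lower with amphetamine on each day (0.811 against 0.884, 0.822 against 0.894 and 0.765 against 0.873 as group means). Its part in the results was not tested beyond a fit with depth as a covariate.

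In saline striatum the most abundant members came from all 3 role groups. Over the 9 saline animals Glrb, the glycine receptor subunit that anchors to gephyrin, stood at 288 ± 24 FPKM (SD, n = 9). Gabarapl1, a relative of the receptor-trafficking protein GABARAP that also acts in autophagy, stood at 268 ± 17 FPKM (SD, n = 9). Gabbr1 and Gad1 followed at 210 ± 6.7 and 200 ± 11 FPKM (SD, n = 9). These 4 genes were at or above 178 FPKM in every saline animal, and the ranges of Glrb and Gabarapl1 overlapped, as did those of Gabbr1 and Gad1. Over all 18 libraries 7 members averaged at least 100 FPKM, 10 averaged 20 to 100, 7 averaged 1 to 20 and 3 averaged less than 1.

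Among GABA-A subunits the order by saline mean was Gabra4 (70.0 FPKM), Gabrd (54.8), Gabrb2 (43.2) and Gabra2 (36.7), followed at a distance by Gabra3 (8.20), Gabrb1 (7.90), Gabra5 (7.71), Gabrg1 (7.26) and Gabrg3 (6.29). The lowest Gabra4 animal (65.1) lay above the highest Gabrd animal (62.6). Below that, the ranges of neighbours in the order overlapped, except that the lowest Gabra2 animal (27.6) lay far above the highest animal of any subunit that followed (Gabrg1, 11.9). Gabra4 and Gabrd encode the alpha4 and delta subunits, which pair in receptors outside the synapse. The partners of the GABA-B receptor were unequal per unit of length, with Gabbr1 at 210 ± 6.7 FPKM and Gabbr2 at 11.5 ± 1.3 FPKM (SD, n = 9). The ligand-binding glycine receptor subunit gene Glra2 stood at 4.74 ± 0.98 FPKM (SD, n = 9), far below Glrb, whose product needs an alpha subunit to form a channel. Glra3, Gabrq and Gabre, at means of 0.472, 0.477 and 0.161 FPKM over the 18 libraries, were the 3 untested members. Gabre, the lowest, was listed at 0 in 1 library (saline, day 7, replicate 1) and reached 0.362 FPKM at most.

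**Figure D1:**
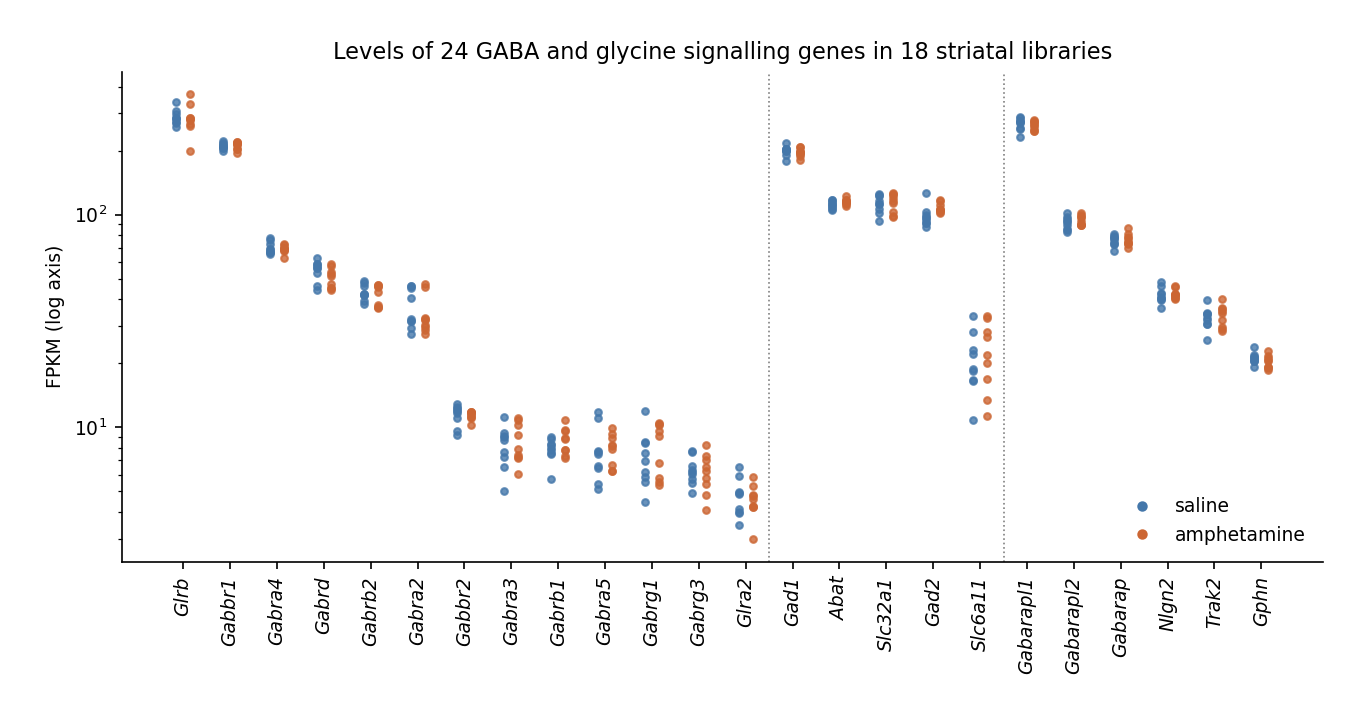
Levels of the 24 tested members in FPKM on a log axis, 1 point per library (9 saline, 9 amphetamine), with receptor subunits, synthesis and transport genes, and scaffold genes separated by dotted lines. Glrb, Gabarapl1, Gabbr1 and Gad1 lie highest, and Slc6a11 spans the widest range of its role group, from 10.8 to 33.3 FPKM.

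No member passed in any comparison of treatment or day. On day 1, 0 of 24 passed, with 0.00716% of all genes tested passing in the same limma fit. The day 7 comparison gave 0 of 24 against 0.0215% and that of day 21 gave 0 of 24 against 0%. Averaging over the 3 days gave 0 of 24 against 0.122%. The interaction of treatment with day gave 0 of 24 against 0%, and the day effect among saline animals gave 0 of 24 against 0.00716%. At an unadjusted limma p under 0.05 the counts of members were 1 for day 1, 2 for day 7, 1 for day 21, 1 for the mean, 2 in the interaction and 3 in the saline day effect. Over all genes the corresponding shares were 7.25%, 4.92%, 5.50%, 5.36%, 6.25% and 5.95%. Few genes passed in the table as a whole, and a count of 0 members lies near that background.

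The members showed no common direction. On day 1, 15 of 24 had a higher mean with amphetamine and the median log2 difference was 0.05, beside 64.0% and a median of 0.05 over all genes. On day 7 it was 14 of 24 with a median of 0.02, beside 51.5% and 0.00. On day 21 it was 10 of 24 with a median of -0.01, beside 42.7% and -0.02. By role the day 1 medians were -0.04 for the 13 tested receptor subunits, 0.08 for the 5 synthesis and transport genes and 0.09 for the 6 scaffold genes.

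Gad2, one of the 2 glutamate decarboxylase genes, was the member with the smallest p on day 21 and in the mean of the days. Its protein is found mostly at nerve terminals, whereas the Gad1 protein is spread through the cell. Their promoters are shown because the 2 genes of the same enzymatic step had different patterns below. Each sequence is the 250 bases upstream of the transcript start on the plus strand of chromosome 2, from RefSeq in build GRCm38.p6, at chr2:22622077-22622326 for Gad2 and chr2:70561879-70562128 for Gad1. The expression files use mm9, so these coordinates belong to the sequences and not to the files. Capitals mark the matches found on either strand.
Gad2: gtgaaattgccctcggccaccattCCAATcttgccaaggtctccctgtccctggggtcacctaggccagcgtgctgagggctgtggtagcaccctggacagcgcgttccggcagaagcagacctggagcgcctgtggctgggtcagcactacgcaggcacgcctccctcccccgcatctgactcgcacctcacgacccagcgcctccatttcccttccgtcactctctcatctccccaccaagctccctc
Gad1: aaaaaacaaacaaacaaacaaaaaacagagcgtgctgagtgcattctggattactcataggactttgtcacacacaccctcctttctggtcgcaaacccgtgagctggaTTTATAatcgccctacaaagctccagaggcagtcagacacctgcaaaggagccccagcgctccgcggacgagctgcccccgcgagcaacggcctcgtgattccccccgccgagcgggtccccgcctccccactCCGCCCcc
The Gad2 sequence holds a CCAAT box (CCAAT) starting at position -226 on the plus strand, a motif present in 33.8% of 32536 RefSeq promoter windows of the same kind. The Gad1 sequence holds TATAAA on the minus strand at -141, found in 12.3% of windows, and a GC box (GGGCGG) on the minus strand at -8, found in 33.0%. The capitals in Gad1 are the reverse complements, and no 2 matches overlap. TGACGTCA (the CRE), TGANTCA (AP-1) and GCGNGGGCG (Egr) had no match on either strand of the windows of Gad1 or Gad2, against 1.56%, 6.73% and 4.74% of windows. A match is a description of letters, and no match says only that these letters are not in this window. GC content was 64% for Gad2 and 58% for Gad1.

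Gad2 stood at 126, 99.97 and 103 FPKM in the saline animals of day 1 and at 105, 112 and 105 FPKM in the amphetamine animals. On day 7 the saline animals had 87.6, 91.5 and 97.0 FPKM and the amphetamine animals 102, 107 and 103 FPKM. On day 21 the saline animals had 94.9, 91.8 and 96.0 FPKM and the amphetamine animals 105, 117 and 116 FPKM. The groups overlapped on day 1, and every amphetamine animal lay above every saline animal on days 7 and 21. The sums of some marker lists separated on the same days. For striatal interneuron markers the day 7 sums lay at 277 to 332 FPKM (saline) and 347 to 361 (amphetamine). Most of each sum was Sst, at 174 to 212 against 223 to 248 FPKM, and Npy separated as well. The other markers of that list overlapped on day 7, including Pvalb and Chat. The mean log2(FPKM + 1) over the list overlapped too (3.66 to 3.96 against 3.75 to 4.04). Day 21 sums were 27.4 to 29.6 against 30.4 to 32.0 for oligodendrocyte precursor markers and 20.3 to 32.2 against 34.1 to 53.2 for blood markers. The part of these markers in the Gad2 values was not tested. The log2 difference of Gad2 was -0.03 ± 0.08 (SE) on day 1 (limma adjusted p = 0.923). It was 0.17 ± 0.08 on day 7 (limma unadjusted p = 0.0376, adjusted p = 0.964) and 0.25 ± 0.08 on day 21 (limma unadjusted p = 0.00468, adjusted p = 0.769). The mean of the days was 0.13 ± 0.04 (limma unadjusted p = 0.00851, adjusted p = 0.714). None of these passed. The interaction of treatment with day also missed the threshold (limma unadjusted p = 0.0527, adjusted p = 0.773), so the days are not shown to differ.

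Among saline animals the Gad2 values of day 1 lay above those of days 7 and 21 without overlap. The later saline groups lay below the day 1 group by log2 differences of -0.24 (day 7) and -0.21 (day 21), a day effect with the smallest limma unadjusted p of any member, 0.0124, and an adjusted p of 0.794. The highest Gad2 value of the study, 126 FPKM, was a day 1 saline animal. Without that library the mean difference was 0.17 (limma adjusted p = 0.0844).

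Gad1 was about 2 times as abundant as Gad2 and had no such pattern. The saline animals of day 1 had 200, 178 and 199 FPKM and the amphetamine animals 209, 207 and 196 FPKM. On day 7 the values were 204, 201.4 and 217 FPKM with saline and 192, 198 and 198 FPKM with amphetamine, while the day 21 values were 190, 204 and 203 FPKM and 180, 189 and 197 FPKM. The groups overlapped on days 1 and 21, and every amphetamine animal lay below every saline animal on day 7. Its log2 differences on days 1, 7 and 21 were 0.08, -0.08 and -0.08, each with an SE of 0.06 (limma adjusted p = 0.704, 1 and 0.878). The ratio of Gad2 to Gad1 within a library, computed after these values were seen, ran from 0.431 to 0.454 in the day 7 saline animals and from 0.519 to 0.539 with amphetamine. On day 21 it ran from 0.449 to 0.500 with saline and from 0.584 to 0.620 with amphetamine. On day 1 the groups overlapped, with 0.518 to 0.630 for saline and 0.502 to 0.538 for amphetamine. These ratios carry no test, and a ratio within a library shows only that the genes differed unequally.

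**Figure D2:**
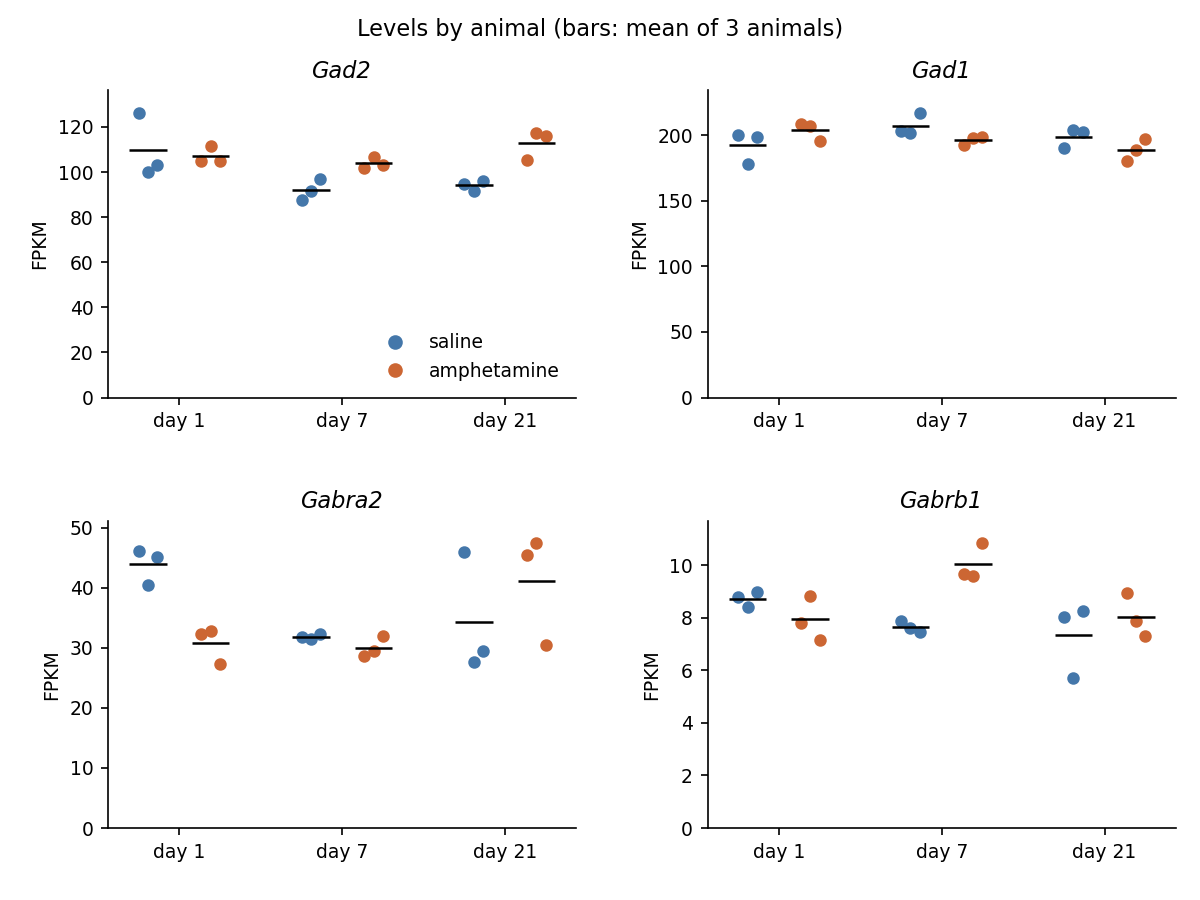
FPKM of Gad2, Gad1, Gabra2 and Gabrb1 in each animal by day and treatment, with 3 animals per group and a bar at the group mean. Gad2 groups separate on days 7 and 21, Gabra2 values form a lower and an upper band, and the 3 amphetamine animals of day 7 are the highest for Gabrb1 at 9.57 to 10.8 FPKM.

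Abat, the transaminase that breaks GABA down, was among the steadiest of all genes, with a spread between animals of 1 group (residual SD) of 0.058 on the log2 scale, at the 2.4 percentile of genes tested. Its saline animals had 106, 110 and 117 FPKM on day 1, 108, 112 and 112 on day 7, then 105, 117 and 115 on day 21. The amphetamine animals had 122, 115 and 110 FPKM on day 1, 114, 117 and 116 on day 7, then 115, 112 and 117 on day 21. The groups overlapped on days 1 and 21 and not on day 7, and the mean difference was 0.05 ± 0.03 (SE; limma adjusted p = 0.999). Slc32a1, the vesicular GABA transporter, ranged from 93.8 to 126 FPKM with a mean difference of 0.02 ± 0.07 (SE; limma adjusted p = 0.999).

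Slc6a11, the GABA transporter found largely on astrocytes, was the most variable of the 24 tested members on the log2 scale. The saline animals had 18.8, 16.5 and 28.1 FPKM on day 1, 10.8, 18.5 and 33.3 on day 7, then 16.7, 23.1 and 22.2 on day 21. The amphetamine animals had 32.6, 26.6 and 28.1 FPKM on day 1, 21.96, 33.2 and 13.5 on day 7, then 20.1, 16.8 and 11.4 on day 21. The groups overlapped on every day, and the highest and lowest values of the study were both saline animals of day 7. The log2 differences were 0.47, 0.18 and -0.36 on days 1, 7 and 21, each with an SE of 0.36 (limma adjusted p = 0.714, 1 and 0.891). Its residual SD of 0.476 was at the 94.7 percentile of genes tested.

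Among the receptor subunits, Gabra2 had the largest difference on day 1. This gene encodes the alpha2 subunit of GABA-A receptors. The saline animals of day 1 had 46.2, 40.5 and 45.1 FPKM and the amphetamine animals 32.4, 32.8 and 27.4 FPKM. On day 7 the values were 31.8, 31.5 and 32.3 FPKM with saline and 28.7, 29.5 and 31.9 FPKM with amphetamine. On day 21 they were 46.0, 27.6 and 29.5 FPKM with saline and 45.5, 47.4 and 30.4 FPKM with amphetamine. The day 1 groups were far apart, while those of days 7 and 21 overlapped. The log2 difference was -0.50 ± 0.17 (SE) on day 1 (limma unadjusted p = 0.0117, adjusted p = 0.666), -0.08 ± 0.17 on day 7 and 0.26 ± 0.17 on day 21 (limma adjusted p = 1 and 0.878). The interaction of treatment with day had an unadjusted limma p of 0.0243 and an adjusted p of 0.773, and the saline day effect 0.0435 and 0.813, so none passed.

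The 18 Gabra2 values formed 2 bands. In 12 libraries they lay between 27.4 and 32.8 FPKM and in 6 between 40.5 and 47.4 FPKM, with an empty stretch of 7.72 FPKM between. The 6 upper values were the 3 saline animals of day 1, saline replicate 1 of day 21 and amphetamine replicates 1 and 2 of day 21. The gap was measured after the bands were seen and is a description. As a share of the gene's whole range on the log2 scale, the widest gap between neighbouring values with at least 4 libraries on each side was 38.5% for Gabra2, at the 98.6 percentile of genes tested, where the median was 12.1%. The bands cut across treatment, and the day 21 groups each held animals of both. Gabra2 sits on mouse chromosome 5 in a cluster of GABA-A subunit genes, in the order Gabrg1, Gabra2, Cox7b2, Gabra4, Gabrb1 among protein-coding genes of the reference annotation. Its neighbours in the cluster had gaps of 10.9% (Gabrg1), 15.7% (Gabra4) and 7.30% (Gabrb1) of their ranges. Among the other members Gabrd (26.8%), Gphn (24.1%), Nlgn2 (23.7%) and Gabrb2 (22.6%) came next, at the 97.2, 95.9, 95.6 and 94.5 percentiles. Beside the day 1 difference, astrocyte markers summed to 745 to 837 FPKM in the saline animals and 845 to 920 in the amphetamine animals of that day, and choroid plexus markers to 10.8 to 19.9 and 26.7 to 102. Ttr made up most of each choroid plexus sum with amphetamine, at 18.1 to 91.1 FPKM against 2.465 to 12.9 with saline. Kl and Aqp1 also separated on that day, while Folr1, Kcnj13 and Clic6 overlapped. The part of the astrocyte and choroid plexus markers in the Gabra2 result was not tested. The slopes of Gabra2 on the astrocyte and septal and pallidal marker scores (explained with Slc6a11 and Trak2) did not pass (limma adjusted p = 0.921 and 0.937).

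Gabrb1, a beta subunit gene of the same cluster, had the smallest p of any member on day 7. The day 7 saline animals had 7.87, 7.60 and 7.46 FPKM and the amphetamine animals 9.68, 9.57 and 10.8 FPKM, so that the groups were fully separate. On day 1 the values were 8.79, 8.39 and 8.99 FPKM with saline and 7.80, 8.84 and 7.15 FPKM with amphetamine. On day 21 they were 8.03, 5.72 and 8.27 FPKM and 8.95, 7.86 and 7.31 FPKM. The groups overlapped on both of those days. The log2 difference on day 7 was 0.35 ± 0.11 (SE; limma unadjusted p = 0.00608, adjusted p = 0.822), and on days 1 and 21 it was -0.13 ± 0.11 and 0.13 ± 0.11 (limma adjusted p = 0.739 and 0.878). The interaction had an unadjusted limma p of 0.0253 and an adjusted p of 0.773.

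Gabrd, the delta subunit gene of receptors that respond to ambient GABA, was lower on average with amphetamine on days 7 and 21. Its saline animals had 44.1, 58.5 and 46.4 FPKM on day 1, 55.9, 56.3 and 58.6 on day 7, then 53.2, 62.6 and 57.1 on day 21. The amphetamine animals had 52.8, 44.2 and 58.7 FPKM on day 1, 51.6, 45.0 and 53.7 on day 7, then 45.4, 47.0 and 57.3 on day 21. The groups separated on day 7, and on day 21 a single amphetamine animal, at 57.3 FPKM, overlapped the saline range. The log2 differences were 0.06, -0.19 and -0.21, each with an SE of 0.12 (limma adjusted p = 0.883, 1 and 0.871). Gabra4, which encodes its frequent partner, ranged from 62.3 to 77.7 FPKM and had a mean difference of -0.02 ± 0.04 (SE; limma adjusted p = 0.999).

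Gabbr1 and Gabbr2 encode the GABA-B receptor, which signals through G proteins. Gabbr1 was the steadiest member, at 195 to 221 FPKM with a residual SD of 0.057, the 2.2 percentile of genes tested. Gabbr2 had 11.1, 12.5 and 12.3 FPKM in the saline animals of day 1, 9.60, 9.20 and 12.04 on day 7, then 12.9, 11.7 and 11.9 on day 21. Its amphetamine animals had 11.8, 11.8 and 11.2 FPKM on day 1, 10.2, 11.3 and 11.8 on day 7, then 11.6, 11.7 and 11.02 on day 21. The 2 lowest values were saline animals of day 7, and the saline day effect had an unadjusted limma p of 0.0266 and an adjusted p of 0.804. On day 21 the amphetamine animals lay below the saline animals without overlap, with -0.08 ± 0.08 as the log2 difference (SE; limma adjusted p = 0.891).

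None of the remaining receptor subunits passed. Glrb had 273, 286 and 286 FPKM in the saline animals of day 1, 338, 283 and 308 on day 7, then 269, 258 and 296 on day 21. With amphetamine it had 368, 331 and 199 FPKM on day 1, 284, 280 and 266 on day 7, then 280, 285 and 260 on day 21. The highest and the lowest Glrb values were both amphetamine animals of day 1, and the groups overlapped on days 1 and 21, and on day 7 by 1 value. Gabrg1, Gabra3, Gabra5, Glra2 and Gabrg3 had residual SDs of 0.386, 0.285, 0.279, 0.251 and 0.243, all at or above the 85.2 percentile of genes tested. Their mean differences ran from -0.04 ± 0.11 (Glra2) to 0.15 ± 0.17 (Gabrg1; SE), the latter the largest of the 24 tested members, with limma adjusted p = 0.999 for each. Gabrb2, a beta subunit gene, ranged from 36.6 to 48.9 FPKM with a mean difference of -0.05 ± 0.07 (SE; limma adjusted p = 0.999).

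Of the scaffold and trafficking genes, Gabarapl2 and Gphn had the smallest p in the mean of the days. Gabarapl2, another relative of GABARAP, had 83.0, 95.1 and 93.2 FPKM in the saline animals of day 1 and 97.7, 99.5 and 102 FPKM with amphetamine. On day 7 it had 85.8, 84.5 and 97.4 FPKM against 90.6, 97.4 and 89.8, and on day 21 89.5, 102 and 92.9 FPKM against 89.8, 89.7 and 93.7. The groups separated on day 1 and overlapped on the other days. The day 1 difference was 0.14 ± 0.07 (SE; limma unadjusted p = 0.0572, adjusted p = 0.674). It was 0.08 without saline replicate 1 of that day and 0.09 with median-of-ratios scaling. The mean of the days, 0.05 ± 0.04 (limma adjusted p = 0.999), became -0.004 with relative depth as a covariate. GABARAP relatives resemble each other in sequence, and how reads shared between them were counted is not given in the sources used here.

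Gphn encodes gephyrin, the scaffold under glycine and GABA-A receptors. The saline animals had 21.3, 19.2 and 20.6 FPKM on day 1, 23.8, 21.5 and 21.9 on day 7, then 20.6, 20.6 and 21.4 on day 21. The amphetamine animals had 18.6, 20.8 and 18.9 FPKM on day 1, 20.5, 19.3 and 21.2 on day 7, then 19.3, 21.6 and 22.8 on day 21. Day 7 was the only day without overlap, with amphetamine lower by -0.13 ± 0.07 on the log2 scale (SE; limma unadjusted p = 0.0619, adjusted p = 1). Gabarapl1 had 233, 254 and 276 FPKM in the saline animals of day 1, 270, 257 and 287 on day 7, then 275, 273 and 286 on day 21. Its amphetamine animals had 276, 253 and 279 FPKM on day 1, 270, 248 and 264 on day 7, then 248, 262 and 273 on day 21. The groups were apart on day 21 only, where amphetamine was lower by -0.09 ± 0.07 on the log2 scale (SE; limma adjusted p = 0.878). Gabarap ranged from 67.9 to 86.9 FPKM, and Nlgn2, the neuroligin of inhibitory synapses, from 36.4 to 48.0 FPKM, with mean differences of 0.01 and 0.02 (limma adjusted p = 0.999 for both).

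Groups without overlap were counted over the 24 tested members beside the share of all tested genes. On day 1, 1 member (Gabarapl2) was higher with amphetamine in this sense and 1 (Gabra2) was lower, where 7.73% and 2.91% of all genes were. On day 7, 3 members were higher (Gad2, Gabrb1 and Abat) and 3 lower (Gad1, Gphn and Gabrd), where 5.45% and 4.86% of all genes were. On day 21, 2 members were higher (Gad2 and Gabra4) and 3 lower (Gabbr2, Gabarapl1 and Nlgn2), where 4.76% and 7.51% of all genes were. Gad2 was the only member separated the same way on at least 2 days, 1 of 24 beside 1.27% of all genes, and 0 members were lower on at least 2 days beside 0.716%.

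**Figure D3:**
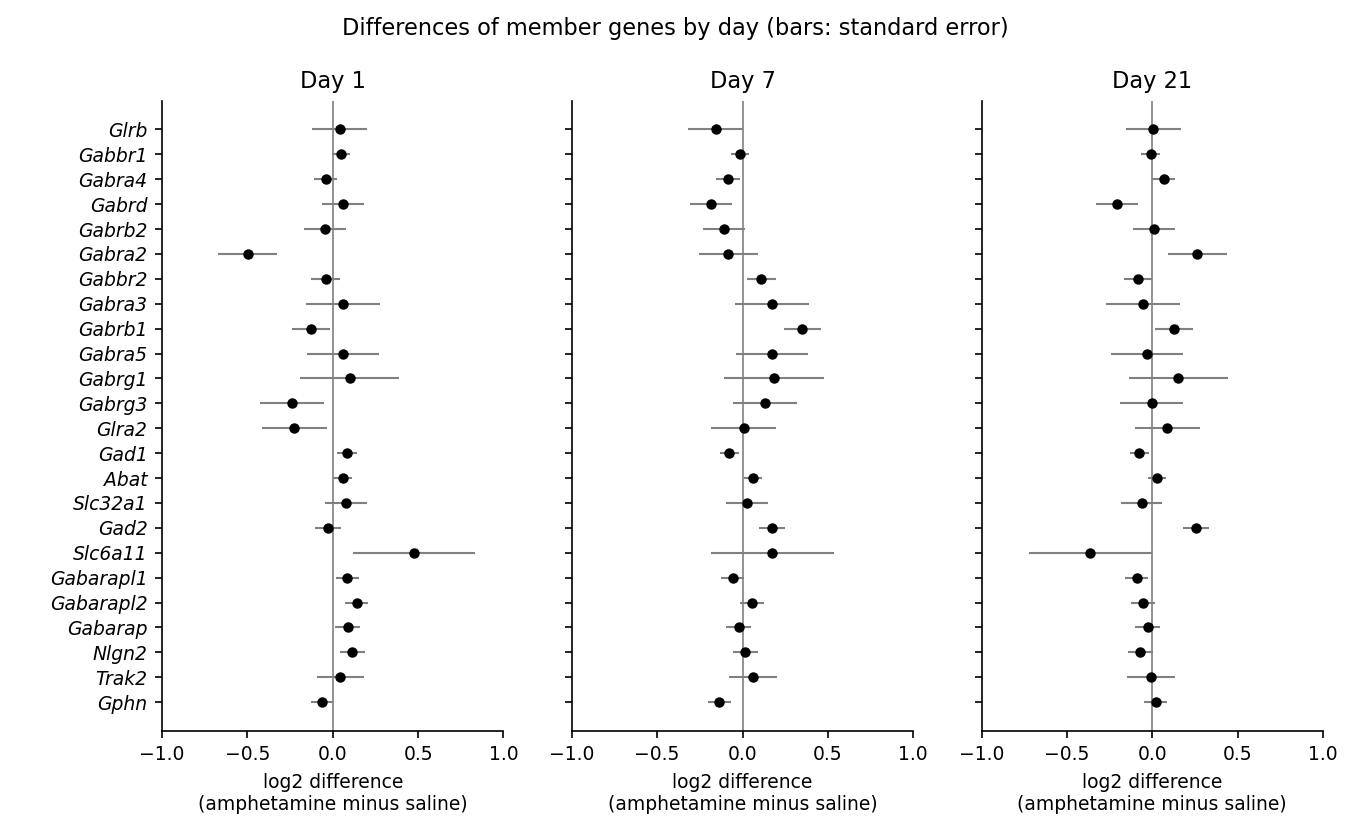
Log2 difference (amphetamine minus saline, on the log2(FPKM + 1) scale) of the 24 tested members on days 1, 7 and 21, with bars for the standard error of the limma fit. Most points lie near 0, and Gabra2 on day 1 (-0.50), Gabrb1 on day 7 (0.35) and Gad2 on day 21 (0.25) lie farther from 0 relative to their bars.

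Several members varied widely between animals of the same group. Their values were set against markers of other cells by adding to the limma fit each library's mean log2(FPKM + 1) over a marker list, and the slope is the log2 change of a gene per unit of that score. On the astrocyte score 2 of 24 members passed, beside 1.92% of all genes. These were Slc6a11, with a slope of 2.49 ± 0.41 (SE; limma adjusted p = 0.00677), and Trak2, with a slope of 0.99 ± 0.15 (SE; limma adjusted p = 0.0041). Trak2 encodes an adaptor that links mitochondria and other cargo to motor proteins and was described as a binding partner of GABA-A receptors. The astrocyte list holds no member.

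The values in single animals followed the score in part. Trak2 had 30.5, 32.6 and 39.9 FPKM in the saline animals of day 1, 25.7, 34.0 and 34.6 on day 7, then 30.5, 32.1 and 34.3 on day 21. The amphetamine animals had 34.4, 35.3 and 36.1 FPKM on day 1, 29.7, 40.3 and 29.0 on day 7, then 36.4, 32.1 and 28.2 on day 21. The lowest Slc6a11 and Trak2 values were the same library, saline replicate 1 of day 7, which also had the lowest astrocyte score, 4.86. The astrocyte markers were not equally low in that library. Agt, Gja1, Slc1a3 and S1pr1 had their lowest values of the study there. Aqp4, Slc1a2 and Slc4a4 were not among their lowest, at 16.5, 238 and 46.8 FPKM. The score is therefore not a measure of astrocyte content alone, and which markers carry the slopes was not tested. Amphetamine replicate 2 of day 7, with an astrocyte score of 5.35, had 33.2 FPKM of Slc6a11 and the highest Trak2 value. The highest Slc6a11 value, 33.3 FPKM, was saline replicate 3 of day 7, with a score of 5.22. The highest score, 5.51, was amphetamine replicate 3 of day 1, with 28.1 FPKM of Slc6a11. Trak2 passed under all 27 alternatives, whereas Slc6a11 passed under 24. Slc6a11 missed the threshold without saline replicate 1 of day 7 (limma adjusted p = 0.0576), without amphetamine replicate 3 of day 7 (limma adjusted p = 0.0508) and with relative depth as a covariate (limma adjusted p = 0.0879).

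**Figure D4:**
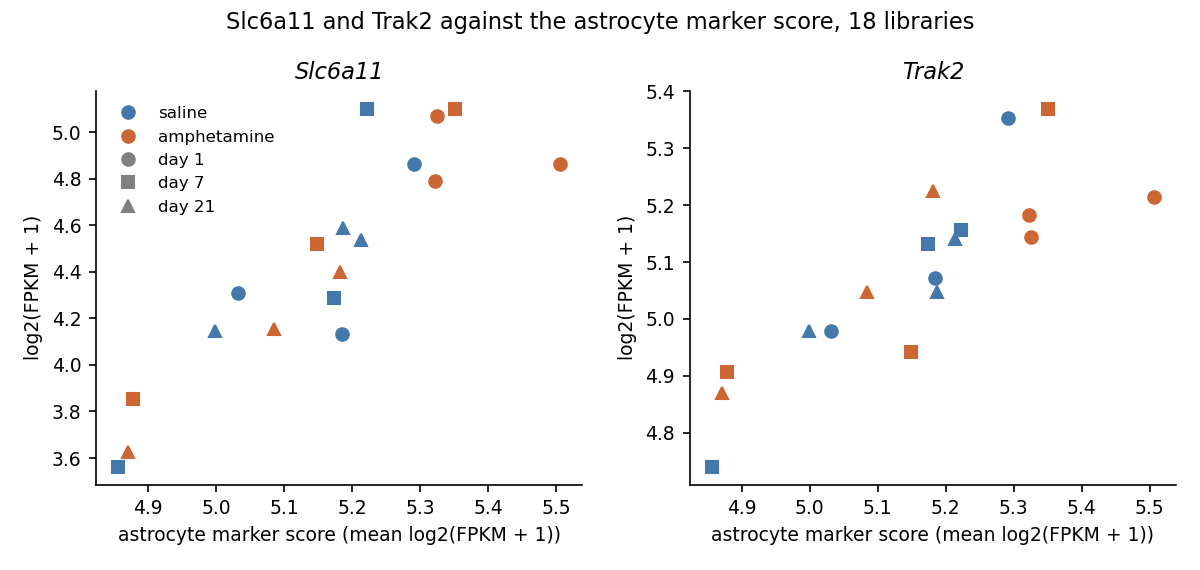
Log2(FPKM + 1) of Slc6a11 and Trak2 in each of the 18 libraries against the astrocyte marker score, the mean log2(FPKM + 1) over the astrocyte markers, with colour for treatment and symbol for day. Both genes tend to be higher where the score is higher, over scores from 4.86 in the lowest library to 5.51 in the highest, in saline and amphetamine animals alike.

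Both genes also passed on the oligodendrocyte score, 2 of 24 beside 3.59% of all genes, with slopes of 1.24 ± 0.30 for Slc6a11 and 0.51 ± 0.11 for Trak2 (SE; limma adjusted p = 0.0388 and 0.0151). Oligodendrocyte markers summed to 1260 to 3130 FPKM. The oligodendrocyte and astrocyte scores rest on the same libraries, and which of them a gene goes with was not tested. Slc6a11 passed under 10 of 27 alternatives and Trak2 under 20. Gabra4, with a slope below 0 (-0.23 ± 0.06, SE; limma adjusted p = 0.0532), did not pass but did under 5 of the 27, with slopes from -0.31 to -0.18 over all of them. On the oligodendrocyte score 0 members passed with the replicate block, the number range from the labels as a covariate or relative depth as a covariate. The same held without saline replicate 1 or amphetamine replicate 2 of day 7.

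On the cortical glutamatergic score 0 of 24 members passed, beside 0.0572% of all genes, with 1 at an unadjusted limma p under 0.05. On a score of septal and pallidal markers 0 of 24 passed beside 0.0716%, but 7 of 24 members (29.2%) had an unadjusted limma p under 0.05, beside 7.79% of all genes. The list was chosen for tissue bordering the striatum, but Slc5a7, the choline transporter of cholinergic neurons, is also on the list of striatal interneurons, so the score is not specific to neighbouring tissue. The 7 all had slopes above 0 and were Slc6a11 (3.1), Gabrg1 (2.15), Gabra3 (1.57), Gabra5 (1.23), Gabrb2 (0.94), Trak2 (0.88) and Gabbr2 (0.50), named here after their values were seen. Their limma adjusted p ran from 0.121 (Slc6a11) to 0.576 (Gabra5), so none passed. The highest septal and pallidal score, 2.91, was saline replicate 3 of day 7. That library also had the highest summed FPKM, 682270, with 595573 in the next. With all 18 libraries 10 genes passed on this score and the median slope over all genes was 0.078. Without that library 0 genes passed and the median was -0.015. The unadjusted p values of the 7 members in that last fit are not given here. Gabrg1 illustrates the spread. Its saline animals had 11.9, 5.83 and 7.59 FPKM on day 1, 4.45, 5.51 and 8.44 on day 7, then 8.49, 6.20 and 6.95 on day 21. With amphetamine it had 10.2, 9.66 and 6.77 FPKM on day 1, 5.75, 10.4 and 5.38 on day 7, then 10.3, 9.09 and 5.53 on day 21. High and low animals occurred in both treatments on each day, and the septal and pallidal markers summed to 69.2 to 92.1 FPKM.

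Other genes of the pathway were taken from a list of 40, which covers further receptor subunits, membrane transporters, chloride carriers, glutamine and succinate metabolism, and proteins that bind the receptors. Of these, 38 were in the table and 28 were tested, and 0 passed in the treatment and day comparisons (0 higher, 0 lower), in the limma fit. At an unadjusted limma p under 0.05 there were 2 on day 1, 1 each on days 7 and 21 and in the interaction, 2 in the saline day effect and 2 in the mean of the days. The latter were Slitrk3, a postsynaptic adhesion protein of inhibitory synapses, and Shisa7, an auxiliary protein of GABA-A receptors. Slitrk3 had 16.6, 15.3 and 15.5 FPKM in the day 1 saline animals, 17.3, 15.4 and 16.5 on day 7, then 16.4, 16.3 and 15.9 on day 21. Its amphetamine animals had 13.6, 14.6 and 14.1 FPKM on day 1, 15.9, 13.3 and 15.8 on day 7, then 15.1, 14.8 and 15.3 on day 21. Amphetamine animals lay below saline animals without overlap on days 1 and 21, and the mean difference was -0.12 ± 0.04 (SE; limma unadjusted p = 0.0042, adjusted p = 0.568). Shisa7 had 38.4, 42.5 and 40.3 FPKM in the day 1 saline animals, 39.5, 39.7 and 40.9 on day 7, then 39.7, 35.8 and 38.9 on day 21. With amphetamine it had 43.0, 39.9 and 42.5 FPKM on day 1, 44.2, 44.6 and 48.1 on day 7, then 39.4, 39.9 and 42.6 on day 21. It separated on day 7 only, and the mean difference was 0.11 ± 0.03 (SE; limma unadjusted p = 0.00491, adjusted p = 0.618). Akap5, which encodes an anchoring protein of the postsynapse, is named after its values were seen, since its unadjusted p was small in several comparisons. Its log2 differences were -0.20 on day 1, 0.14 on day 7 and 0.27 on day 21, each with an SE of 0.08 (limma adjusted p = 0.666, 1 and 0.769), and like Gad2 its amphetamine animals lay above its saline animals without overlap on days 7 and 21. The interaction of Akap5 had an unadjusted limma p of 0.00271 and the saline day effect 0.0056 (limma adjusted p = 0.773 and 0.756). On at least 2 days 1 of the 28 (Akap5) separated upward and 1 (Slitrk3) downward, beside 1.27% and 0.716% of all genes. By day, 2 were higher and 1 lower on day 1 (7.73% and 2.91% of all genes). On day 7, 3 were higher and 0 lower (5.45% and 4.86%), and on day 21, 3 and 5 (4.76% and 7.51%).

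On the astrocyte score 3 of the 28 passed, all with slopes above 0, beside 1.92% of all genes, and they are named here after their values were seen. Slc6a9, a glycine transporter found on glia, had a slope of 1.68 ± 0.22 (SE; limma adjusted p = 0.00175). Slc12a2, which carries chloride into cells, had a slope of 0.94 ± 0.14, and Glul, the glutamine synthetase of astrocytes, 0.80 ± 0.16 (SE; limma adjusted p = 0.00346 and 0.0228). The neuronal synthesis and loading genes Gad1, Gad2 and Slc32a1 had slopes of -0.03, -0.09 and 0.29 on this score, and none passed (limma adjusted p = 0.946, 0.894 and 0.721). On the oligodendrocyte score 5 of the 28 passed, 4 with slopes above 0 and 1 below, beside 3.59% of all genes, and Slc6a9, Slc12a2 and Glul were among the 4. Whether the astrocyte slopes of the neuronal genes differ from those of the genes above was not tested.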

How the data were processed

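The authors deposited 1 table of FPKM values with 18 columns, matched to the samples by the numbers in their descriptions, and 0 columns of other samples. Bowtie was used with build mm9, per the submitters' processing notes. Which program quantified the reads, with which annotation and strand setting, is not given in the sources used here, so a gene and its antisense partner cannot be told apart. Total reads are unknown. Relative depth was estimated from the most common FPKM ratio between each library and 1 reference library, over genes at 0 in several libraries.

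FPKM are not counts, and so a count model was not used. The scale of all tests was log2(FPKM + 1), which understates differences of low genes, and genes averaging under 1 FPKM were left out. A limma model (limma version 3.58.1 in R 4.3.3) took all 18 libraries, a mean for each group and a trend of variance with level, leaving 12 residual and 2.26 prior degrees of freedom. Tests were two-sided, with Benjamini-Hochberg adjustment over all tested genes. Marker scores entered as covariates beside the group means. The labels give 3 mice per group, so the spread is between animals. With 3 against 3 no single gene was tested by permutation.

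The members and lists were chosen with earlier results of these data known. Values in every library are given for the members with the smallest p in each comparison and role group and for the highest and lowest of each role group, and those of Trak2 and Gabrg1 were added after their values were seen. Of the other pathway genes, the 2 with the smallest p in the mean of the days are named. Akap5, Slc6a9, Slc12a2 and Glul were named after their values were seen. Alternatives were a pseudocount of 0.1, filters of 0 and 5 FPKM, quantile normalization, median-of-ratios scaling, a block for the replicate number, array weights, the number range from the labels as a covariate, each library left out, and fits to fewer libraries. Relative depth as a covariate was added after the data were seen. Scripts were tested on simulated data. RefSeq promoter windows (GRCm38.p6) were matched by symbol for 25 of 27 members. Figures were drawn with matplotlib (version 3.10.9).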

Additional observations from a re-analysis of the deposited data

How the results depend on the processing

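Members that passed numbered 0 in the treatment, interaction, saline day, cortical and septal comparisons under every alternative run (27 or 28 each). The 12 named differences kept their direction under every alternative except that of Gabarapl2 in the mean of the days, which was -0.004 with relative depth as a covariate. The mean difference of Gad2 ran from 0.113 to 0.169 (limma adjusted p from 0.0844 to 1), and with the replicate block it was 0.13 (limma adjusted p = 0.794).

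On the astrocyte score 1 member passed with relative depth as a covariate, and from 1 to 2 when each library was left out, with 1 without saline replicate 1 or amphetamine replicate 3 of day 7. On the oligodendrocyte score 1 passed with median-of-ratios scaling and 1 with quantile normalization, in both cases Gabra4 with a slope below 0 in place of Slc6a11 and Trak2, and 0 with the replicate block, the label number or relative depth as a covariate. Leaving out each library gave 0 to 3 there, where the 3 were Gabra4, Slc6a11 and Trak2, without amphetamine replicate 3 of day 1 or saline replicate 2 of day 7. It was 0 without saline replicate 1 or amphetamine replicate 2 of day 7. It was 1, Trak2, without saline replicate 3 or amphetamine replicate 2 of day 1, saline replicate 3 or amphetamine replicate 1 or 3 of day 7, and any saline animal or amphetamine replicate 1 of day 21. The causes were not tested.

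Replicate numbers are shared between groups but are not shown to pair animals. Deviations of same-numbered libraries correlated at -0.085 to 0.145 over 9 pairs, with 3 over 0.1, and 4 of 9 amphetamine libraries were closest to their own number. Total reads are unknown, so no counting error is given, and values of Gabre, Gabrq and Glra3 below 1 FPKM allow no statement of a difference.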
